A study of Mus musculus with 7 samples.

Results

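The genes examined were 10 members of the pathway that makes, senses and removes prostaglandin E2 (PGE2), from arachidonate release to breakdown: *Pla2g5*, *Pla2g4a*, *Ptgs1*, *Ptgs2*, *Ptges*, *Ptges2*, *Ptges3*, *Ptger2*, *Ptger4* and *Hpgd*. They were taken by symbol from 52230 mouse genes with matched transcripts, and all 10 were among the 19233 genes tested. Expression was measured by RNA-seq in ovarian stroma, the tissue left once granulosa cells had been removed, in 4 libraries from PGR +/+ mice (WT) and 3 from PGR -/- mice (KO) of the PRKO line (Pgrtm1Bwo), a whole-animal null for both isoforms of the progesterone receptor. Mice were 21–27 days old, received 5 IU eCG and 44 h later 5 IU hCG, and ovaries were collected 8 h after hCG. Follicles were punctured to expel granulosa cells, and the remaining tissue of 3 mice was pooled for each library. The comparison asks which transcripts of the ovarian stroma depend on the progesterone receptor shortly before ovulation.

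Prostaglandins are made when a phospholipase A2 frees arachidonate from membrane phospholipids, a cyclooxygenase converts it to PGH2, and terminal synthases turn PGH2 into PGE2 or other prostanoids. PGE2 acts through G protein-coupled receptors, among them EP2 and EP4, and is inactivated after uptake into cells by 15-hydroxyprostaglandin dehydrogenase. In the ovary the LH surge, mimicked here by hCG, induces *Ptgs2* in preovulatory follicles, and PGE2 is required for cumulus expansion and follicle rupture.

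Between 47372446 and 63416875 reads per library were assigned to transcripts. *Pgr* had 16.85 to 31 CPM (reads scaled to the TMM-normalised library size) in WT and 6.13 to 7.56 CPM in KO, where the mean was 30.3% of WT (log2 fold change −1.72, adjusted p = 0.0544 in edgeR). The tissue was mixed. Markers of theca cells summed to 5030–6340 TPM (transcript abundance corrected for length and scaled to a fixed total in each library) in WT and 4430–5520 TPM in KO, and those of stromal fibroblasts to 1620–2350 and 1660–1970 TPM. Granulosa cell markers were still present, at 1230–1650 TPM in WT and 1440–2090 TPM in KO. Oocyte markers reached 205–292 and 262–367 TPM, and markers of macrophages and other leukocytes 88.4–104 and 91.2–112 TPM. Of 12 marker lists, the smooth muscle list (*Acta2*, *Myh11*, *Tagln*, *Cnn1*) did not overlap between genotypes, at 1410–1690 TPM in WT and 1030–1360 TPM in KO. Of all tested genes taken singly, 9.05% did not overlap. In such bulk tissue, fewer cells of a type and less RNA per cell cannot be told apart.

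With genotype as the sole term in the fit, none of the 10 genes passed an adjusted p of 0.05 together with a log2 fold change of 0.5 in edgeR, thresholds that 0.0104% of all tested genes passed. None passed with DESeq2 either, where 0.749% of all genes did, and none with limma-voom. An unadjusted p of at most 0.05 in edgeR was found for 3 of the 10, *Pla2g5* and *Ptgs1* lower and *Pla2g4a* higher in KO, where 8.94% of all tested genes had such a p (5.1% lower and 3.84% higher in KO). The libraries of the genotypes did not overlap for 2 of the 10, *Pla2g4a* and *Ptges2*, against 9.05% of all tested genes (5.12% with KO lower and 3.93% with KO higher). The median log2 fold change of the 10 genes was −0.05, and the median absolute value 0.07, where it was 0.10 over all tested genes. All these values are from fits on genotype alone. When the replicate number was added as a block, *Pla2g5* alone of the 10 passed in edgeR, where 0.135% of all genes did.

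Levels are compared between genes in TPM. *Ptges3*, which encodes the cochaperone p23, also described as cytosolic PGE synthase, was highest, with a WT mean of 152 ± 9.04 TPM (SD, n = 4) against a KO mean of 154 ± 4.67 TPM (SD, n = 3). *Ptges* followed with a WT mean of 39.7 TPM, then *Ptges2* with 33.7, *Pla2g4a* with 32.3, *Ptgs2* with 27.5, *Pla2g5* with 25.6 and *Hpgd* with 18.1. The 2 receptor genes and *Ptgs1* were lowest, with 7.22 TPM for *Ptger4*, 6.02 for *Ptgs1* and 4.50 for *Ptger2*. Among neighbours in this order, the WT libraries separated *Ptges3* from *Ptges* and *Hpgd* from *Ptger4*, and all other neighbours overlapped. In KO the order differed in that *Pla2g4a* stood above *Ptges2*, and *Pla2g5*, with 10.4 ± 2.37 TPM (SD, n = 3), lay below *Hpgd*, with no overlap in either pair. These places count all transcripts of a gene. The coding transcript of *Ptges2* alone was at 4.81 to 5.62 TPM over the 7 libraries, within the range of *Ptgs1*, and a retained-intron transcript made up most of the rest. The coding transcript of *Ptges* alone was at 24.1 to 30.4 TPM in WT, below the WT mean of *Pla2g4a* and on both sides of that of *Ptgs2*. A shorter *Ptges* transcript without a defined coding sequence had 9.93 to 14.5 TPM in WT. The main transcript of *Pla2g5* alone had a mean of 15.7 TPM in WT, below that of *Hpgd*, and 6.78 TPM in KO.

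**Figure D1:**
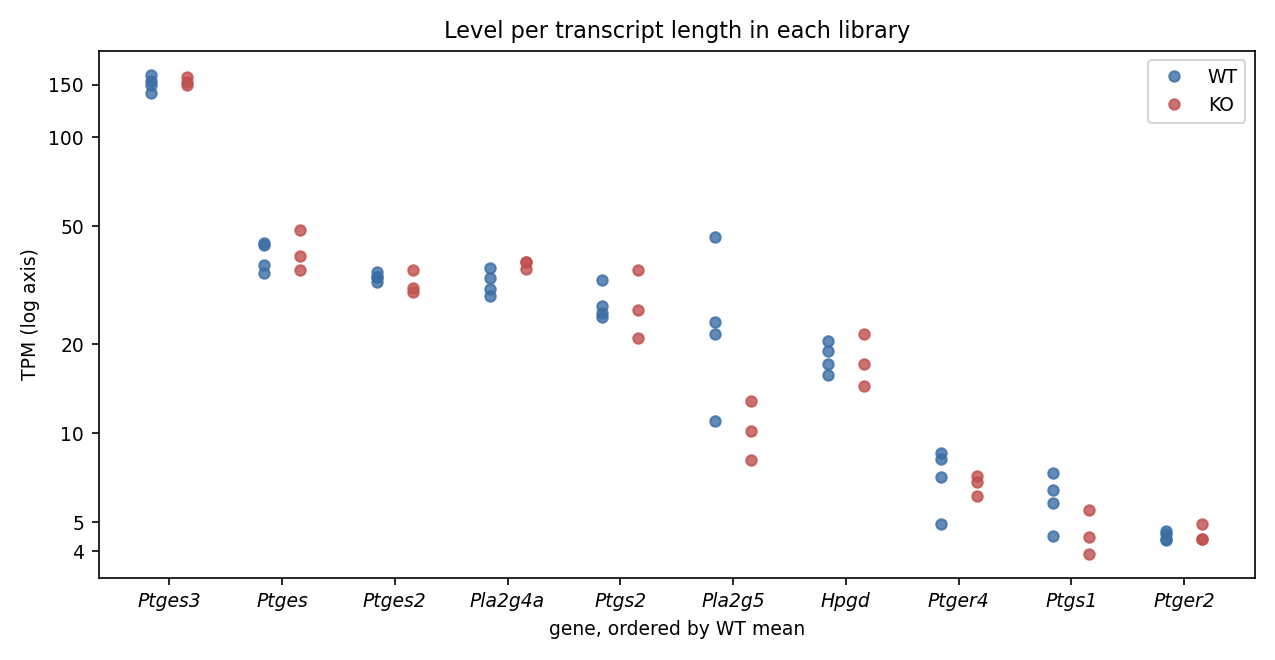
Level of each gene in TPM (log axis) in every stromal library, ordered by the WT mean, with WT in blue and KO in red. *Ptges3* stands above the others at about 150 TPM in both genotypes, and *Pla2g5* shows the widest spread, from 8.11 TPM in KO to 46.0 TPM in WT.

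*Pla2g5* encodes a secreted group V phospholipase A2, which hydrolyses phospholipids at cell surfaces and is known in phagocytes. The gene lies on the minus strand of chromosome 4 of GRCm39, from 138526553 to 138590916, among other genes of secreted phospholipases A2. GENCODE annotates 9 transcripts, whose starts fall into a distal site near the upstream end of the gene, a proximal site 44309 bases downstream, and internal starts. The main proximal transcript (ENSMUST00000102512) and both distal coding transcripts share the same coding exons, with 137 codons, and differ in their first exons. The 250 bases before each start are shown because the reads fell almost completely on transcripts of the proximal site. The windows are chr4:138546608-138546857 for the proximal and chr4:138590917-138591166 for the distal start, read on the minus strand of GRCm39 and given 5′ to 3′, and capitals mark an E-box (CACGTG).
proximal start of Pla2g5: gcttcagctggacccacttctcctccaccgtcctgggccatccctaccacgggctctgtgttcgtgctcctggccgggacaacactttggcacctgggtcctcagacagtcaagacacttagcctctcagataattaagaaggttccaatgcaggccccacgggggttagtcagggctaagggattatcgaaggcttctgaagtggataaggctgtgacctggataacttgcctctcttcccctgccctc
distal start of Pla2g5: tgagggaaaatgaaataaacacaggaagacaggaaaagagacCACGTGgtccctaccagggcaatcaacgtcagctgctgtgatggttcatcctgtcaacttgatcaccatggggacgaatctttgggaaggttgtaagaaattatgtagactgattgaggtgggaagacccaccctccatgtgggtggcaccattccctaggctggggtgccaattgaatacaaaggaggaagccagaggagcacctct

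The palindromic hormone response element that nuclear receptors of the progesterone and glucocorticoid class recognise was searched for on both strands, as the arm GNACA followed after 3 bases by its reverse complement TGTNC. It matched neither window, and matched no 250-base window before the main start of the other 9 genes. Of 32851 RefSeq promoter windows of the same length, 0.39% held it. The hexamer TGTTCT, an arm of that element, matched in the windows of *Ptger2* (2 matches), *Ptges* (1) and *Ptgs1* (1), while 16.08% of all windows held at least 1. The E-box CACGTG of the distal *Pla2g5* window was found in 6.02% of all windows. Such matches describe the letters of these windows and nothing about binding.

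*Pla2g5* was measured at 10.91, 17.21, 20.15 and 31.75 CPM in the WT libraries (replicates 1 to 4), compared with 6.24, 7.79 and 10.99 CPM in the KO libraries (replicates 2 to 4). All KO libraries lay below WT replicates 2, 3 and 4, and KO replicate 4 just above WT replicate 1, so the groups overlapped by that single pair. The fold change was 0.417 of WT, a log2 fold change of −1.26 (95% interval −2.03 to −0.50, adjusted p = 0.316 in edgeR). An exact permutation test of log2 CPM gave p = 0.0857, where the smallest p that 4 libraries against 3 allow is 0.0286. The study, which used DESeq2, reports *Pla2g5* as lower in KO stroma at a log2 fold change of −1.51, past its thresholds. Here DESeq2 on genotype alone gave −1.26 (adjusted p = 0.128), which did not pass. *Pla2g5* ranked 284 of 19233 genes by p in edgeR here. It is among the genes that the study itself selected from these libraries, so this rank is not independent evidence. With WT replicate 1 left out, the log2 fold change was −1.46 (adjusted p = 0.135 in edgeR), and without WT replicate 4 it was −0.94 (adjusted p = 0.339). With the mean of the granulosa markers as a covariate it was −1.11 (adjusted p = 0.322 in edgeR). With the replicate number as a block it was −1.46 (adjusted p = 0.00767 in edgeR). In DESeq2 with that block and length offsets it was −1.51 (adjusted p = 7.13e-15). The labels do not say that the numbers pair libraries. The summed markers of theca cells, given above, were also lower in KO with overlap, and those of leukocytes overlapped widely. Most of the theca sum was *Cyp11a1*, at 3690 to 5610 TPM in WT. Among the WT libraries, *Cyp11a1* and *Lhcgr* were highest in replicate 4, as *Pla2g5* was. *Cyp17a1* and *Insl3* were lowest in that library, at 430 and 70.2 TPM. The part of theca cells and leukocytes in the *Pla2g5* values was not tested.

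By start site, transcripts from the proximal start held 93.8% to 97.6% of the *Pla2g5* reads in WT and 95.4% to 97.3% in KO. Distal transcripts had 0, 22.3, 13.7 and 13.2 estimated reads in WT replicates 1 to 4 and 0, 0 and 3.6 in KO replicates 2 to 4, at most 2.6% of the gene. The main proximal transcript alone held 95 ± 1.84% (SD, n = 4) of WT reads and 95.2 ± 1.43% (SD, n = 3) of KO reads (exact permutation test, p = 0.886). The lower reads in KO were thus reads of the same main transcript, whose level was 8.07, 13.6, 16.1 and 24.8 TPM in WT and 4.81, 6.09 and 9.45 TPM in KO. The 46.0 TPM of the whole gene in WT replicate 4 includes 18.6 TPM of an internal transcript of 286 bases without a defined coding sequence that held 89.8 of 1975 reads. TPM weights such short transcripts strongly, and the WT to KO ratio was 2.31 for the main proximal transcript alone.

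**Figure D2:**
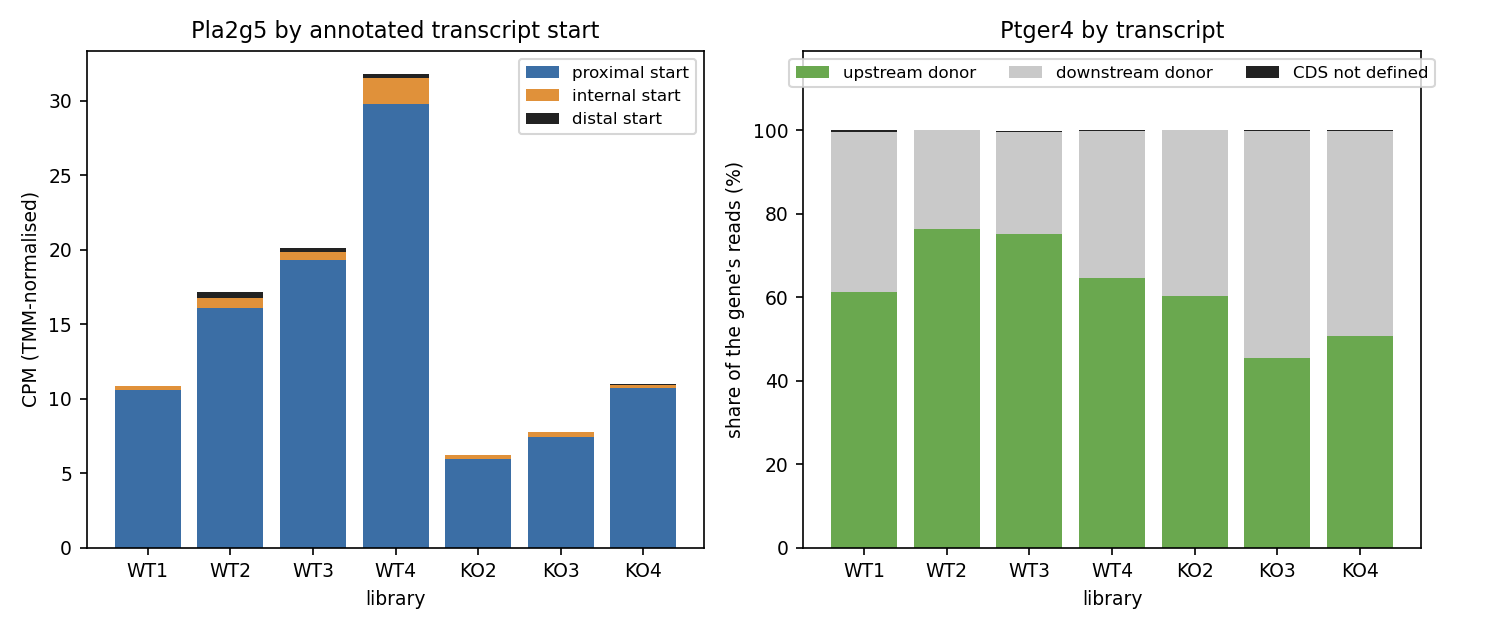
Left, *Pla2g5* CPM in each library, stacked by annotated transcript start. Right, share of *Ptger4* reads (%) assigned to each of its 3 transcripts. The proximal start makes up nearly the whole *Pla2g5* bar in every library, and the transcript with the upstream splice donor holds 61.3% to 76.4% of *Ptger4* reads in WT and 45.4% to 60.4% in KO.

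*Pla2g4a* encodes cytosolic phospholipase A2 alpha, the calcium-activated enzyme that prefers arachidonate and supplies cyclooxygenases inside the cell. It lies on chromosome 1 from 149705369 to 149837053, close to *Ptgs2*. It had 57.18, 63.61, 59.81 and 54.58 CPM in the WT libraries (replicates 1 to 4), compared with 69.38, 64.53 and 63.79 CPM in the KO libraries (replicates 2 to 4). Every KO library lay above every WT library, though KO replicate 4 exceeded WT replicate 2 by less than 1 CPM. The direction was opposite to that of *Pla2g5*, with a log2 fold change of 0.16 (95% interval 0.02 to 0.31, adjusted p = 0.504 in edgeR; exact permutation test p = 0.0571). It stayed between 0.13 and 0.20 when each library was left out in turn.

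Of 20 further genes in the list of other phospholipases A2 and their receptor, 12 passed the filter on low counts, of which 5 were on the lower and 7 on the higher side in KO. None passed the thresholds in edgeR, DESeq2 or limma-voom, while 4 of the 12 (33.3%) had an unadjusted p of at most 0.05 in edgeR, against 8.94% of all tested genes. *Pla2g7*, which encodes the secreted platelet-activating factor acetylhydrolase, had 8.86, 10.15, 8.41 and 9.63 CPM in WT and 15.44, 10.96 and 12.18 CPM in KO. The KO libraries did not overlap the WT libraries (log2 fold change 0.47, 95% interval 0.19 to 0.76, adjusted p = 0.315 in edgeR; exact permutation test p = 0.0286). In DESeq2 its adjusted p was 0.0451, but the log2 fold change of 0.48 was under the threshold. *Pla2g4c*, which encodes a calcium-independent group IV enzyme, had a WT mean of 18.7 ± 2.75 CPM (SD, n = 4) against a KO mean of 24.1 ± 3.67 CPM (SD, n = 3), with overlap (log2 fold change 0.37, adjusted p = 0.441 in edgeR).

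*Pla2g15*, the lysosomal phospholipase A2 and the highest of this list with a mean of 26.2 TPM, had 48.21, 50.27, 41.57 and 53.61 CPM in WT and 44.12, 37.47 and 33.36 CPM in KO. KO replicate 2 overlapped the WT libraries (log2 fold change −0.34, adjusted p = 0.399 in edgeR). *Pla2r1*, which encodes a receptor that binds secreted phospholipases A2, ranged from 16.33 to 18.39 CPM in WT and from 14.68 to 16.27 CPM in KO, without overlap (log2 fold change −0.17, adjusted p = 0.537 in edgeR). Of the 5 group II secreted enzymes in the list (*Pla2g2a*, *Pla2g2c*, *Pla2g2d*, *Pla2g2e* and *Pla2g2f*), *Pla2g2d* alone passed the filter, with a mean of 1.36 TPM, and *Pla2g2a* was listed at 0 in all 7 libraries.

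*Ptgs1* encodes the constitutive cyclooxygenase COX-1 and lies on chromosome 2 from 36120438 to 36142287. It had 7.90, 11.29, 9.38 and 10.45 CPM in the WT libraries (replicates 1 to 4), compared with 7.07, 6.46 and 8.13 CPM in the KO libraries (replicates 2 to 4). KO replicate 4 lay above WT replicate 1, and every other KO value below every WT value. The fold change was 0.741 of WT, a log2 fold change of −0.43 (95% interval −0.75 to −0.12, adjusted p = 0.392 in edgeR; exact permutation test p = 0.0857). The reads numbered 310 to 650 per library, and 96.6% to 98.0% fell on 1 coding transcript in every library. The study lists *Ptgs1* among genes it selected in granulosa cells, a different tissue sequenced in separate libraries. With the granulosa markers as a covariate, the log2 fold change was −0.40. The summed smooth muscle markers given above were lower in the same KO libraries. *Myh11* alone overlapped, at 78.7 to 111 TPM in WT and 54.4 to 92.4 TPM in KO. The part of smooth muscle in the *Ptgs1* values was not tested.

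*Ptgs2* encodes COX-2, the cyclooxygenase that the LH surge induces, and lies on chromosome 1 from 149975194 to 149983978. It had 79.67, 92.84, 76.99 and 69.72 CPM in the WT libraries (replicates 1 to 4), compared with 104.6, 74.72 and 56.3 CPM in the KO libraries (replicates 2 to 4). The KO libraries held both the highest and the lowest value of all 7, so that the means, 79.8 ± 9.65 CPM (SD, n = 4) and 78.6 ± 24.4 CPM (SD, n = 3), were close while the spread was not. The log2 fold change was −0.02, with a 95% interval from −0.44 to 0.40 (adjusted p = 0.986 in edgeR). It was −0.29 without KO replicate 2 and 0.17 without KO replicate 4, so its sign rested on single libraries.

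The 3 transcripts that mark cumulus expansion were examined beside *Ptgs2*. *Has2*, the hyaluronan synthase of the expanding cumulus, had 6.85 to 8.11 CPM in WT and 16.54, 10.67 and 8.28 CPM in KO replicates 2 to 4, with no overlap (log2 fold change 0.66, adjusted p = 0.377 in edgeR). *Ptx3*, a structural protein of the cumulus matrix, had 17.76 to 28.28 CPM in WT and 44.71, 34.69 and 27.82 CPM in KO. *Tnfaip6*, which crosslinks hyaluronan, had 68.53 to 79.01 CPM in WT and 100.4, 94.19 and 55.48 CPM in KO. In each of them, as in *Ptgs2*, KO replicate 2 was highest and KO replicate 4 lowest among the KO libraries. Whether cumulus RNA moved the *Ptgs2* values was not tested.

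**Figure D3:**
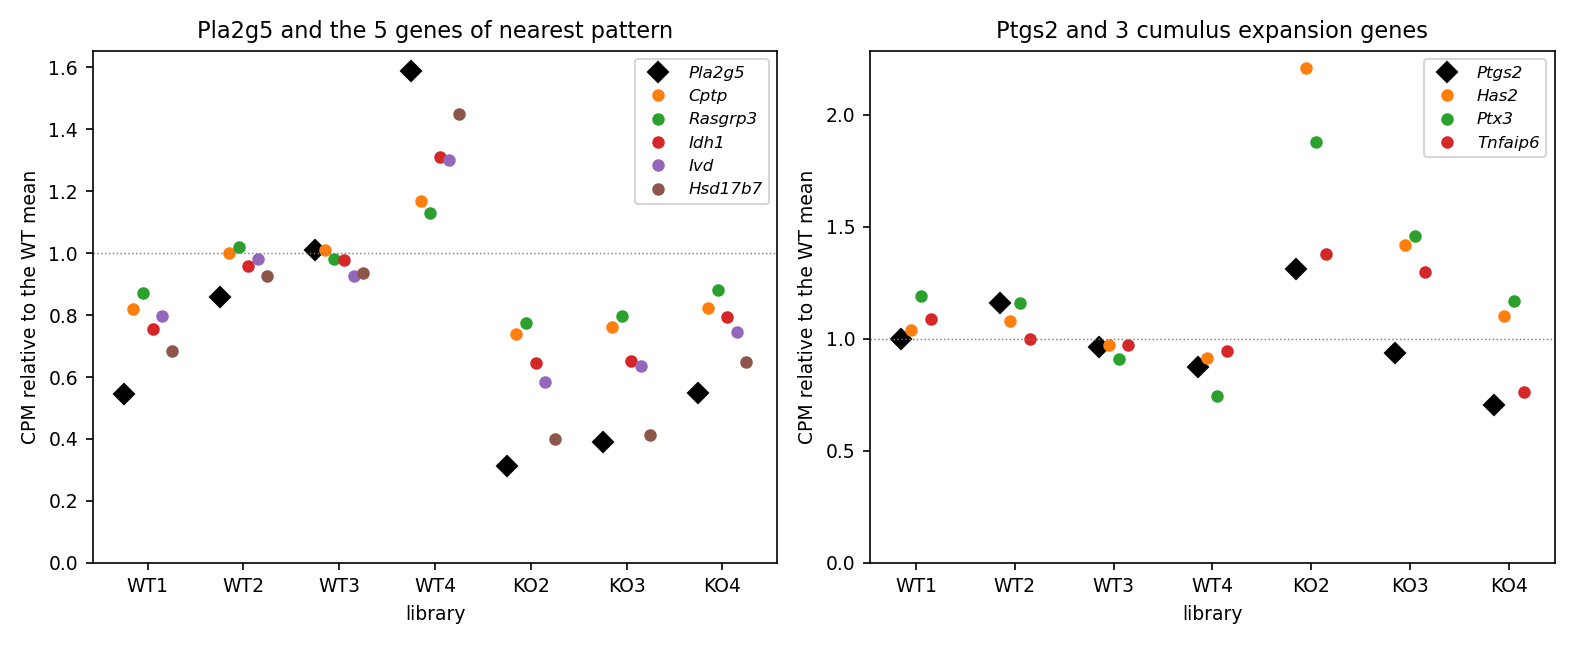
CPM in each library relative to the WT mean of the same gene, for *Pla2g5* with the 5 genes of nearest pattern (left) and *Ptgs2* with 3 cumulus expansion genes (right). WT replicate 1 sits near KO replicate 4 for *Pla2g5*, at 0.546 and 0.549 of the WT mean, and KO replicate 2 is the highest KO library on the right.

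The genes whose pattern over the 7 libraries was nearest to *Pla2g5* were *Cptp*, *Rasgrp3*, *Idh1*, *Ivd* and *Hsd17b7*. Likeness was the mean absolute difference of log2 CPM after each gene was centred and scaled to its own SD, and it was 0.114 to 0.136 SD for these 5, where the median over 19232 genes was 1.09 SD. *Hsd17b7*, an enzyme of cholesterol and oestradiol synthesis, had 329.3, 445.3, 451.1 and 700.7 CPM in WT and 193.3, 198.4 and 313.1 CPM in KO. WT replicate 4 was highest and KO replicate 2 lowest, as in *Pla2g5*, a likeness that choosing the gene by its pattern makes likely. *Idh1*, the cytosolic isocitrate dehydrogenase, ranged from 581.6 to 1007 CPM in WT and from 497.9 to 611 CPM in KO. For *Ptgs2* the nearest were *Bbox1*, *Gm70432*, *St14*, *Birc3* and *Mtg2*, at 0.192 to 0.228 SD. These are descriptions over 7 points that share their libraries.

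**Figure D4:**
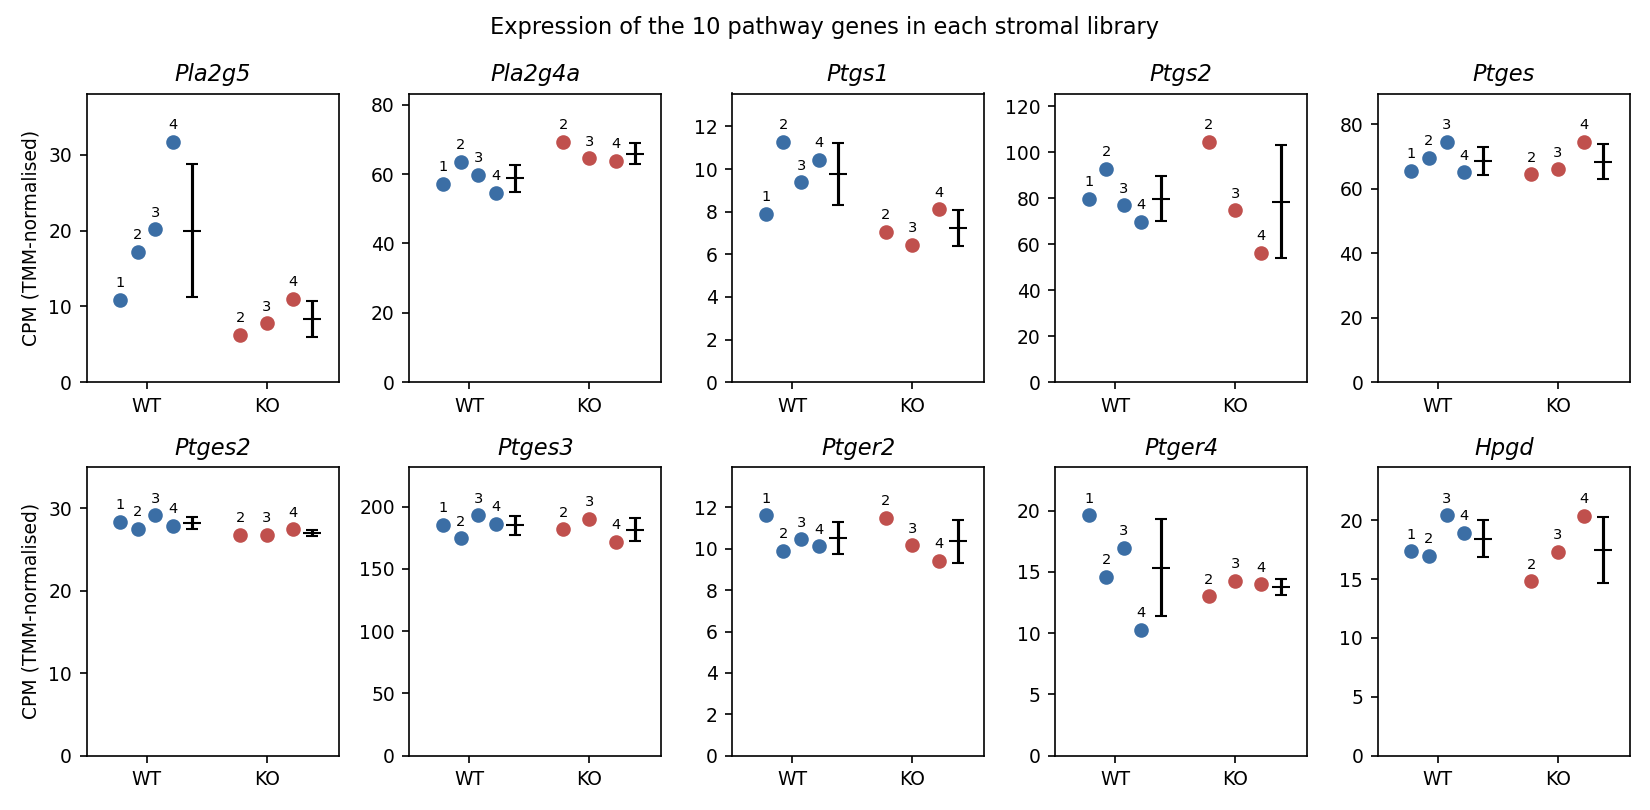
CPM of each of the 10 genes in every library, numbered by replicate, with the mean and SD as black bars (4 WT libraries in blue, 3 KO libraries in red, axes from 0). *Pla2g5* and *Ptgs1* are lower and *Pla2g4a* higher in most KO libraries, and the PGE synthases lie close together in both genotypes.

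The 3 PGE synthase genes varied little. *Ptges*, the inducible microsomal synthase that couples to COX-2, lies on chromosome 2 from 30779483 to 30820196. It had 65.52, 69.59, 74.53 and 65.11 CPM in WT and 64.48, 66.08 and 74.62 CPM in KO, with wide overlap. Its log2 fold change was −0.01 and the 95% interval reached from −0.17 to 0.16 (adjusted p = 0.991 in edgeR). *Ptges3* had 174.7 to 193.3 CPM in WT and 171.9 to 190.4 CPM in KO, and its log2 fold change of −0.03 had an interval from −0.16 to 0.11.

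*Ptges2*, the membrane-associated synthase, had 28.38, 27.52, 29.18 and 27.86 CPM in WT and 26.77, 26.78 and 27.45 CPM in KO. Each KO library was below each WT library, the nearest pair by less than 0.1 CPM, and the log2 fold change was −0.06 (95% interval −0.18 to 0.05, adjusted p = 0.762 in edgeR). Its reads were divided between a coding transcript, with 60% to 63.6% of the reads in each library, and a shorter transcript annotated as a retained intron. The latter had a WT mean of 10.9 ± 0.275 CPM (SD, n = 4) against a KO mean of 9.91 ± 0.56 CPM (SD, n = 3) (exact permutation test, p = 0.0571). The coding transcript averaged 17.2 ± 0.555 and 16.9 ± 0.154 CPM. Because the retained-intron transcript has 765 bases and the coding one 4978, the gene's TPM came mostly from the transcript without a coding sequence, at 24.5 to 29.4 TPM against 4.81 to 5.62 TPM.

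The PGE2 receptor genes were expressed at low levels in both genotypes. *Ptger2*, on chromosome 14, encodes EP2, the receptor that raises cAMP in cumulus cells. It had 11.63, 9.92, 10.46 and 10.13 CPM in WT and 11.5, 10.17 and 9.42 CPM in KO, a log2 fold change of −0.02 with a 95% interval from −0.24 to 0.20 (adjusted p = 0.966 in edgeR). *Ptger4*, on chromosome 15 from 5236142 to 5273673, encodes EP4, which also couples to cAMP. It had 19.64, 14.59, 16.96 and 10.26 CPM in WT and 13.03, 14.27 and 13.99 CPM in KO. WT replicate 4 lay below all KO libraries and WT replicates 1 to 3 above them. The log2 fold change was −0.16 (95% interval −0.58 to 0.27, adjusted p = 0.848 in edgeR), −0.30 without WT replicate 4 (adjusted p = 0.446) and −0.01 without WT replicate 1 (adjusted p = 0.993).

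The transcripts of *Ptger4* were divided differently between the libraries. Its 2 coding transcripts (ENSMUST00000047379 and ENSMUST00000120563) share their last 2 exons in GENCODE M39, have slightly different starts, and use splice donors 63 bases apart at the end of the first exon. By the same annotation, the transcript with the upstream donor begins its coding sequence in the first exon and has 513 codons, while that with the downstream donor begins in the next exon and has 488. The 30 bases around each donor are shown because the splicing of the 2 transcripts differs there, at chr15:5273149-5273178 and chr15:5273086-5273115 on the minus strand of GRCm39, with the first bases of the intron in capitals.
upstream donor of Ptger4: tggctgaggttggagGTaggtcctgaacat
downstream donor of Ptger4: aaccccaccctacagGTaagtcgggatgga

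The upstream-donor transcript held 61.3%, 76.4%, 75.2% and 64.5% of the gene's reads in WT replicates 1 to 4, compared with 60.4%, 45.4% and 50.6% in KO replicates 2 to 4. Each KO share was below each WT share, with means of 69.4 ± 7.58% (SD, n = 4) and 52.1 ± 7.62% (SD, n = 3). An exact permutation test gave p = 0.0571, and 0.514 after adjustment over the 9 genes with more than 1 transcript, a family examined after the transcript values had been seen. It was at 12, 11.1, 12.8 and 6.62 CPM in WT and 7.87, 6.47 and 7.07 CPM in KO, so WT replicate 4 overlapped the KO libraries. The downstream-donor transcript was at 7.5, 3.44, 4.14 and 3.61 CPM in WT and 5.16, 7.78 and 6.90 CPM in KO, with WT replicate 1 among the KO values. These are Salmon's estimates, which divide reads from shared exons between the transcripts, so the shares carry more error than the gene's total. In the other 8 genes the largest transcript's share overlapped between genotypes.

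*Hpgd* encodes 15-hydroxyprostaglandin dehydrogenase, the first enzyme of prostaglandin breakdown, and lies on chromosome 8 from 56747543 to 56774082. It had 17.35, 16.99, 20.43 and 18.92 CPM in WT and 14.8, 17.3 and 20.37 CPM in KO, with overlap. The log2 fold change was −0.08 (95% interval −0.33 to 0.18, adjusted p = 0.891 in edgeR).

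Ratios within a library compared the balance of steps. The ratio of *Ptgs2* to *Ptgs1* in TPM was 5.66, 4.50, 4.63 and 3.84 in WT replicates 1 to 4, compared with 8.01, 6.67 and 3.80 in KO replicates 2 to 4. Its log2 difference was 0.35 (exact permutation test, p = 0.343), with values of 0.13 without KO replicate 2 and 0.66 without KO replicate 4. The ratio of *Ptges* to *Hpgd* averaged 2.20 ± 0.254 (SD, n = 4) for WT and 2.35 ± 0.352 (SD, n = 3) for KO (exact permutation test, p = 0.514). The ratio of *Ptger2* to *Ptger4* was 0.649 ± 0.159 in WT and 0.689 ± 0.102 in KO (exact permutation test, p = 0.571). All 3 ratios overlapped between genotypes, and each had an adjusted p of 0.571 over the 3 exact tests.

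The wider pathway was described from a list of 58 other genes, of which 45 passed the filter on low counts. None passed the thresholds in edgeR, and 5 (11.1%) had an unadjusted p of at most 0.05, near the 8.94% of all tested genes. The 4 in the phospholipase list are given above, and the fifth was *Slco2a1*, the prostaglandin transporter that carries PGE2 into cells. It had 282.4, 318.1, 268.5 and 291.1 CPM in WT and 240.7, 236.8 and 269.5 CPM in KO, with overlap of KO replicate 4 and WT replicate 3 (log2 fold change −0.22, 95% interval −0.39 to −0.05, adjusted p = 0.431 in edgeR). All 5 genes of the transport and breakdown list had a negative log2 fold change, with a median of −0.13. Beside them, the 4 endothelial markers (*Pecam1*, *Cdh5*, *Kdr*, *Tek*) all had negative log2 fold changes, with summed levels of 222–249 TPM in WT and 207–235 TPM in KO. The 4 theca and 4 smooth muscle markers were also all lower, with medians of −0.43 and −0.37 against −0.16 for the endothelial list. All oocyte, cumulus expansion and red blood cell markers were higher. The part of these cell types in the transport and breakdown values was not tested.

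Among other prostanoid synthases, *Akr1b3*, an aldose reductase with PGF synthase activity, was highest at a mean of 208 TPM and had a log2 fold change of −0.01 (adjusted p = 0.971 in edgeR). *Ptgfr*, the PGF2 alpha receptor, was the highest of the other receptors at 62.5 TPM. It had 123.1, 219.4, 184.9 and 199.7 CPM in WT and 97.16, 125.4 and 193.3 CPM in KO. KO replicates 3 and 4 lay within the WT range, and KO replicate 2 below it (log2 fold change −0.39, 95% interval −0.95 to 0.17, adjusted p = 0.696 in edgeR). *Acsl4*, the ligase that couples arachidonate to coenzyme A for reacylation, had a WT mean of 412 ± 98 CPM (SD, n = 4) against a KO mean of 391 ± 29.9 CPM (SD, n = 3). In the lipoxygenase and leukotriene list, 10 of 13 genes were tested, with 7 negative and 3 positive log2 fold changes and none at an unadjusted p of at most 0.05. Its highest gene, *Lta4h*, which makes leukotriene B4, was at 51.3 ± 2.25 CPM (SD, n = 4) and 51.2 ± 0.254 CPM (SD, n = 3). The 13 genes of the wider list that did not pass the filter, among them *Ptgdr*, *Ptgdr2* and *Pla2g10*, had at most 16 reads in any library.

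**Figure D5:**
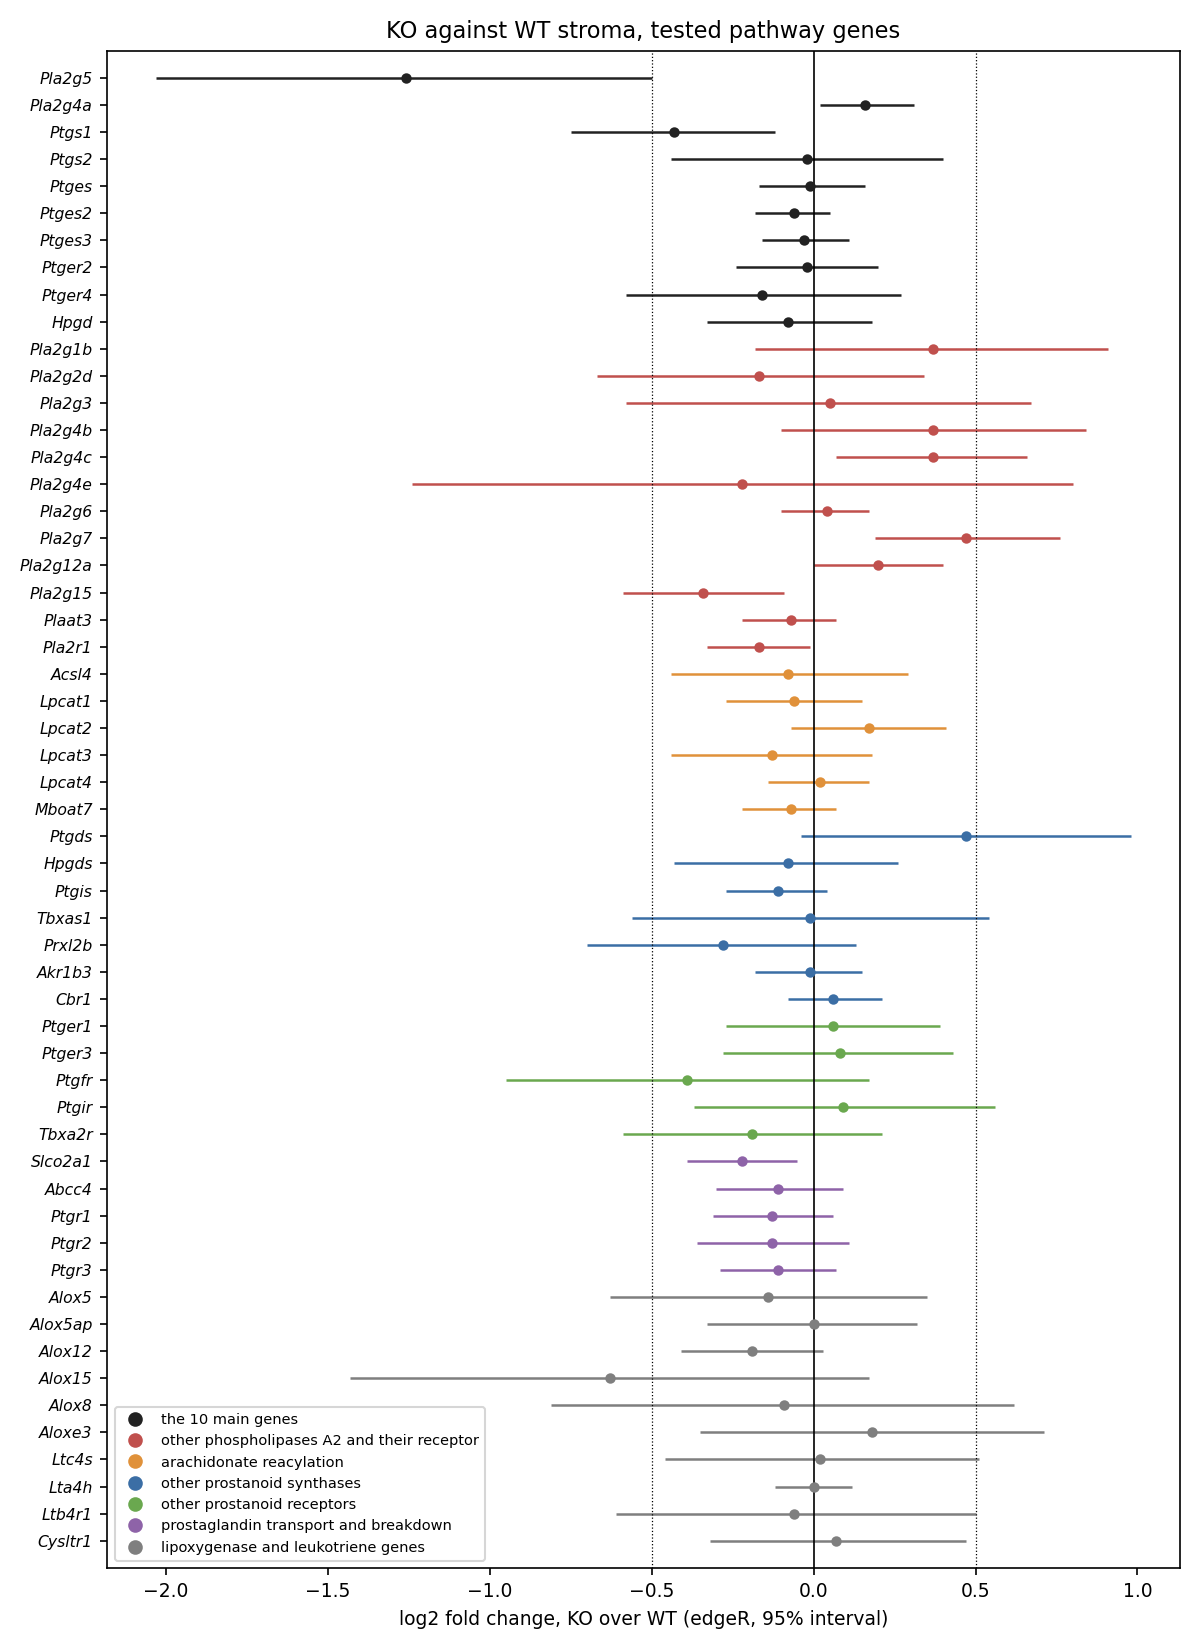
Log2 fold change of KO over WT in edgeR with its 95% interval for the 10 main genes (black) and the 45 tested genes of the wider list, coloured by role. Dotted lines mark 0.5 in each direction, and *Pla2g5*, at −1.26, lies farthest from 0.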

How the data were processed

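Stranded mRNA libraries were sequenced as paired 100 bp reads, which the authors quantified with Salmon against GENCODE M26 on GRCm39 and deposited expected counts (estimated read pairs) and TPM for 139225 transcripts per library; the Salmon version is not given in the sources used here. The authors' files also hold transcript lengths. Transcripts were assigned to genes by Ensembl identifier with GENCODE M39 on GRCm39, which matched 98.8% of them and at least 99.37% of reads. Estimated counts were summed per gene and rounded, and TPM summed. KO was compared with WT in edgeR 4.0.16 (R 4.3.3; TMM, filterByExpr, quasi-likelihood test, two-sided) over 19233 genes with Benjamini–Hochberg adjustment. Intervals were the log2 fold change ± t quantile × standard error. Single values were compared by two-sided exact permutation over 35 splits. Alternatives were DESeq2 1.42.0, limma-voom (3.58.1), other filters and scalings, length offsets, a replicate block, a marker covariate and leaving out libraries. Code was tested on simulated counts.

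The libraries are separate pools of mice per the labels, and p-values measure the spread between them. The 10 genes and the lists were chosen with earlier results of these data known. Genes named beyond the 10 were, in each list, the highest in TPM and those with an unadjusted p of at most 0.05. The 5 genes nearest in pattern to *Pla2g5* and the 5 nearest to *Ptgs2* were also named. *Has2*, *Ptx3*, *Tnfaip6*, the group II phospholipases, *Ptgdr*, *Ptgdr2* and *Pla2g10* were named after their values were seen. So were the theca markers *Cyp11a1*, *Lhcgr*, *Cyp17a1* and *Insl3*. *Akr1b3* was matched by its RefSeq synonym.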

Additional observations from a re-analysis of the deposited data

How the results depend on the processing

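The count of the 10 genes that passed was 0 in edgeR and in all alternatives without a replicate block, and 1 (*Pla2g5*) in the 3 fits with the replicate number as a block. Those gave *Pla2g5* a log2 fold change of −1.46 in edgeR (adjusted p = 0.00767), −1.45 in DESeq2 (adjusted p = 1.03e-25) and −1.51 in DESeq2 with length offsets (adjusted p = 7.13e-15). Deviations of same-numbered libraries correlated at −0.01, 0.11 and 0.08 across genes, and those of differently numbered libraries at −0.13 to 0.10. With so few libraries these values cannot show whether the numbers pair the samples. The labels name no pairing, so the fit on genotype alone was kept as the main one. WT replicate 1 has no partner in the fits with the block. Over all tested genes, 2 passed in edgeR, 144 in DESeq2, 26 (0.135%) in edgeR with the block, 187 (0.972%) and 198 (1.03%) in DESeq2 with the block without and with length offsets, 130 in DESeq2 with length offsets, 36 without a filter and 6 with at least 10 counts in every library. The count of other pathway genes that passed was 0 in every alternative. *Pla2g5*, *Pla2g4a*, *Ptgs1* and *Ptges2* kept their direction in all alternatives. Values near 0 changed sign: *Ptges* was 0.01 in DESeq2 with length offsets and 0.00 in edgeR with length offsets, without a filter and with at least 10 counts, *Ptger2* was 0.02 in both tools with the block and 0.03 with length offsets added, and *Ptger4* was 0.01 in both with the block and 0.00 with length offsets added. With single libraries left out, log2 fold changes ranged from −0.29 to 0.17 for *Ptgs2*, −0.07 to 0.04 for *Ptges*, −0.06 to 0.01 for *Ptges3*, −0.11 to 0.04 for *Ptger2*, −0.20 to 0.03 for *Hpgd* and −1.51 to −0.94 for *Pla2g5*. The log2 difference of the *Ptgs2* to *Ptgs1* ratio then ranged from 0.13 to 0.66, that of the *Ptges* to *Hpgd* ratio from −0.03 to 0.18, and that of the *Ptger2* to *Ptger4* ratio from −0.01 to 0.26. The cause was not tested. *Ptgs1*, at 310 to 650 reads, and the scarce genes have the most counting error.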
